A study of Mus musculus with 2 samples.

Results

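The genes described here are 10 members of the Nodal and activin signalling pathway, measured in mouse embryonic stem (ES) cells that carried a T29I mutation and in wild-type ES cells. They were chosen by symbol from the 51826 genes of the deposited expression table, and all 10 were listed there. Total RNA depleted of ribosomal RNA was sequenced in 2 libraries of v6.5 cells, a mouse ES cell line, with genotype labels T29I for the mutant library and WT for the wild-type library. Both carry the same strain label, NBA1-19349, and the series title names PRSS1 as the mutated gene. The labels give neither a clone number nor a passage. With 1 library per group there is no spread between replicates, so no p-value is given, and "higher" and "lower" describe these 2 libraries.

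Nodal and the activins are secreted ligands of the TGF-beta superfamily. They bring together a type I and a type II receptor kinase on the cell surface, the type I receptor phosphorylates Smad2 and Smad3, and these enter the nucleus with Smad4 and act there with partners such as Foxh1. The pathway induces its own inhibitors, of which the secreted Lefty proteins block Nodal outside the cell and Smad7 and SnoN, the product of Skil, act inside it. Mouse ES cells make Nodal and respond to it, and in the epiblast the pathway supports the primed pluripotent state and the formation of mesendoderm.

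Inhbb, the activin beta B subunit, was at about 1 TPM in the T29I library and 76.0-fold lower than in the wild-type library, and Lefty1, a secreted Nodal inhibitor, was 5.23-fold higher. Nodal, Lefty2, Acvr2b and Skil were between 1.23-fold and 1.69-fold lower. Acvr1b, Smad2, Smad3 and Smad7 were between 2.79-fold and 6.09-fold lower, in a comparison in which 45.7% of the 12943 genes averaging 1 TPM or more were lower by a factor of 2 or more. Levels are in TPM (transcripts-per-million, a read count divided by gene length and scaled to a fixed sum per library), which lets genes be set side by side. This unit does not remove the trend with length and GC content described below.

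Some values of the whole comparison bear on every member. The libraries held an estimated 15281662 reads (T29I) and 16910002 reads (wild-type) assigned to genes. Those 12943 genes, averaged over both libraries, are named expressed genes below. A gene is called lower or higher when its log2(TPM + 1) values differ by 1 or more, a 2-fold difference; adding 1 shrinks the ratios of weakly expressed genes. By this rule 45.7% of the expressed genes were called lower in T29I and 9.97% were called higher. Over genes averaging 5 TPM or more the median log2 ratio was -0.90, named the shift below. The log2 ratio also followed gene structure: a trend on transcript length and GC content accounted for 44.9% of its variance across 9100 protein-coding genes. Each log2 ratio of a member is therefore given as deposited, relative to the shift, and after subtraction of that trend (adjusted). Other genes are given on some of these scales or by level only. Of the ES cell markers all 7 were detected in both libraries, with a summed level of 7141 TPM in T29I and 9969 TPM in wild-type. Zfp42 (23.3-fold), Nanog (5.45-fold) and Esrrb (4.04-fold) were called lower among them as deposited, and Utf1 (2.53-fold) higher. Pou5f1 (1.18-fold), Sox2 (1.59-fold) and Dppa5a (1.93-fold) were lower as deposited by less than 2-fold. Adjusted log2 ratios were -3.69 for Zfp42, -1.48 for Nanog, -1.24 for Esrrb and -0.40 for Utf1, so Utf1 was not higher after adjustment. Of 8 trophoblast markers 4 were called higher and 1 lower, and their sum was 830 TPM in T29I and 51.8 TPM in wild-type, where Plac1 was listed at 0. Most of that sum was Krt8 and Krt18, keratins that other epithelial cells make too. Hand1, a factor of trophoblast giant cells and of mesoderm, was at 79.5 TPM in T29I and 0.868 TPM in wild-type, 91.6-fold higher, with an adjusted log2 ratio of 5.03. Gata3, a trophoblast factor, was at 1.56 TPM in T29I and 0.339 TPM in wild-type. Cdx2 and Elf5, defining factors of trophoblast stem cells, were at 0.402 and 0.103 TPM in T29I and at 0.256 and 0.0983 TPM in wild-type. Sums for 7 fibroblast markers were 19.5 TPM in T29I and 6.18 TPM in wild-type, of which Thy1 made up 17.6 TPM in T29I and 4.57 TPM in wild-type, with Lum listed at 0 in both. The 7 primitive endoderm markers summed to 2.58 and 8.66 TPM and the 5 mesendoderm markers to 4.13 and 9.52 TPM in the T29I and wild-type libraries. The part of these markers in the results below was not tested. In bulk RNA, fewer cells that express a gene and less of its RNA per cell cannot be told apart. Prss1, the mouse gene taken to be the one mutated, was listed at 0 in both libraries, so its level is no check of the labels.

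Inhbb and Lefty1 were the members at least 2-fold apart in the same direction on all 3 scales, so sequences of Inhbb and of the similar pair Lefty1 and Lefty2 are shown before the values. Lefty2 and Lefty1 lie on the + strand of chromosome 1, with 35.9 kb between them (GRCm38, GENCODE M21), Lefty2 from 180893108 to 180899103 and Lefty1 from 180935022 to 180938400. Their coding sequences are both 1107 bases long, differ at 90 positions and are 91.9% identical. A stretch of coding bases 46 to 165, the 120-base window within a single exon in which they differ most, is printed with the 34 differing bases in capitals, since reads can be told apart only at such bases (Lefty1 at chr1:180935155-180935274, Lefty2 at chr1:180893229-180893348, both + strand).
Lefty1: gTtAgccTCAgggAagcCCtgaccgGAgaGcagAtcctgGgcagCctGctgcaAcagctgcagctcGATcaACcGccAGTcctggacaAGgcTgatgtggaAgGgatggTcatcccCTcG
Lefty2: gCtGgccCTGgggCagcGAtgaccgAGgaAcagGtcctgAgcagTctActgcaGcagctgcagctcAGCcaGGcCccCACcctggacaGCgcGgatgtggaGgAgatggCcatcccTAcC
Over the whole annotated transcripts, 17.9% of the 50-base stretches of Lefty1 and 11.6% of those of Lefty2 occur letter for letter in the other transcript, and 4.80% and 3.07% of the 100-base stretches. The labels do not say how the authors assigned reads that map to both, so the split between Lefty1 and Lefty2 carries that uncertainty.

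The 250 bases before the transcription start of each ligand gene are printed because the ligands differed so unlike each other (RefSeq, GRCm38.p6; Inhbb at chr1:119422249-119422498 on the - strand, Nodal at chr10:61417722-61417971 on the + strand). Windows from the RefSeq promoter table were searched for 5 of the 10 members, those of Inhbb, Nodal, Acvr1b, Acvr2b and Smad3. Lefty1, Lefty2 and Skil had no window there, and the windows of Smad2 and Smad7 were left out. Motifs before the starts of these members were thus not tested.
Inhbb: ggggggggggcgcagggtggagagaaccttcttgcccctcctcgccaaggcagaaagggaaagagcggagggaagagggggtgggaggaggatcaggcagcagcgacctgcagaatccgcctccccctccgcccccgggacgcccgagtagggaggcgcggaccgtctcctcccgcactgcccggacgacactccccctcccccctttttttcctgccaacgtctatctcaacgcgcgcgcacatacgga
Nodal: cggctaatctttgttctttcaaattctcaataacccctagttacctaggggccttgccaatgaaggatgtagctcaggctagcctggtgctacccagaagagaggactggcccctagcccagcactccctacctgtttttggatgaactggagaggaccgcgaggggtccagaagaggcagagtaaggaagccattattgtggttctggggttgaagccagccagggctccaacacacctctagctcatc
Capitals would mark the letters searched, CAGAC (its other strand GTCTG), a core sequence that Smad3 and Smad4 bind, and AATNCACA (its other strand TGTGNATT), a FoxH1 motif in which N is any base. Neither motif occurs in either window, and sequence outside these 250 bases was not searched. Among the 5 windows, the only match was 1 CAGAC motif in that of Acvr2b, read on the other strand at 233 bases before the start. Of 32851 windows of this length that were searched in the table, 42.2% hold CAGAC and 3.18% hold AATNCACA on either strand. The Inhbb window has a GC content of 68.0% and the Nodal window 53.2%.

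The ligand Inhbb showed the lowest ratio of the members. Its product pairs with itself to form activin B, and with the Inha product to form inhibin B. Inhbb (ENSMUSG00000037035, chromosome 1 from 119415465 to 119422248, - strand) was at 1.07 TPM in the T29I library, from 30 reads (95% counting interval 0.720 to 1.52 TPM), and at 81.1 TPM in the wild-type library, from 1792 reads (77.4 to 85.0 TPM). The level in T29I was 76.0-fold lower, with a counting interval of 53.1-fold to 113-fold. These intervals, like all intervals here, are exact Poisson or binomial intervals and cover counting error only. The log2 ratio was -5.31 as deposited, -4.42 relative to the shift and -5.28 adjusted, the trend value at its length and GC content being -0.028. Only 0.162% of the expressed genes had a lower log2 ratio, and 0.124% a lower adjusted one. In the order of levels among the members, Inhbb was number 10 in T29I and number 4 in wild-type. The 3 other expressed protein-coding genes within 150 kb had log2 ratios of -1.96 to -0.38 and adjusted ones of -0.13 to 0.41.

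Nodal encodes the other ligand, which patterns the early embryo. It was at 86.7 TPM in T29I, from 1200 reads (counting interval 81.9 to 91.8 TPM), and at 146 TPM in wild-type, from 1589 reads (139 to 153 TPM). This is 1.69-fold lower (1.56-fold to 1.82-fold), and 52.5% of the expressed genes had a lower log2 ratio. The direction depended on the scale, with a log2 ratio of -0.75 as deposited, 0.15 relative to the shift and -0.92 adjusted. Both libraries thus held Nodal at a high level, above that of 89.3% of the expressed genes in T29I and 91.5% in wild-type. Nodal exceeded Inhbb 81.2 times over in T29I (counting interval 56.6 to 121), against 1.80 times in wild-type (1.68 to 1.93), a ratio that does not depend on how the libraries are scaled. Ratios within a library still carry the trend with length and GC content, which differs between genes.

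Lefty1 was the only member with a higher TPM in the T29I library. Lefty proteins are secreted relatives of the ligands that bind Nodal and its co-receptor and so block the signal; both genes are known targets of the pathway they inhibit. Lefty1 (ENSMUSG00000038793) was at 478 TPM in T29I, from 5554 reads (counting interval 466 to 491 TPM), and at 91.4 TPM in wild-type, from 834 reads (85.3 to 97.8 TPM). It was thus 5.23-fold higher (4.86-fold to 5.63-fold), with a log2 ratio of 2.37 as deposited, 3.27 relative to the shift and 1.63 adjusted. Of the expressed genes 1.28% had a higher log2 ratio, and 7.22% a higher adjusted one. Lefty1 was the most abundant of the 10 members in T29I and number 3 in wild-type.

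Lefty2 (ENSMUSG00000066652) differed much less. It was at 121 TPM in T29I, from 2094 reads (counting interval 116 to 127 TPM), and at 150 TPM in wild-type, from 2032 reads (143 to 157 TPM). That is 1.23-fold lower as deposited, with a log2 ratio of -0.30, but 0.59 relative to the shift and 0.20 adjusted, so it has no direction that holds across scales. The order of the pair differed between the libraries: Lefty1 was at 3.94 times the level of Lefty2 in T29I (3.75 to 4.14) and at 0.610 times in wild-type (0.562 to 0.661). The trend value is 0.74 for Lefty1 and -0.50 for Lefty2. Their adjusted log2 ratios, 1.63 and 0.20, thus lie closer together than those as deposited. Set against Nodal, Lefty1 and Lefty2 together were at 6.92 times its level in T29I and at 1.65 times in wild-type. Most of this came from Lefty1, since Lefty2 alone was at 1.40 times Nodal in T29I (1.30 to 1.50) and 1.03 times in wild-type (0.960 to 1.10). The Lefty genes made up 79.6% of the summed TPM of the 10 members in T29I and 37.5% in wild-type, the sums of all 10 being 753 TPM in T29I and 644 TPM in wild-type.

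**Figure D1:**
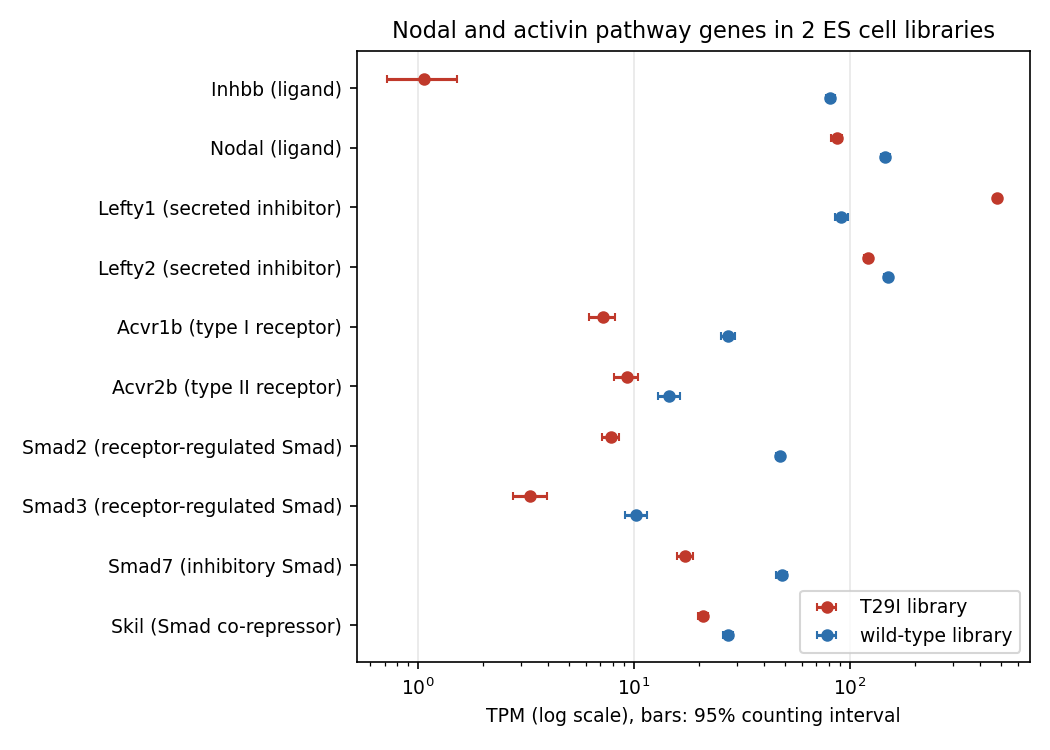
TPM of each pathway member (log axis) in the T29I library (red, upper point of each pair) and the wild-type library (blue, lower point), with 95% counting intervals as bars and 1 library per group. Lefty1 is the only gene whose red point lies to the right, at 478 TPM in T29I and 91.4 TPM in wild-type, and Inhbb has the widest gap, at 1.07 TPM in T29I and 81.1 TPM in wild-type.

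The receptors differed by unlike amounts. Acvr1b encodes ALK4, the type I receptor for activins and Nodal, and was at 7.17 TPM in T29I, from about 209 reads (counting interval 6.22 to 8.20 TPM), and at 27.3 TPM in wild-type, from about 626 reads (25.2 to 29.5 TPM). It was 3.81-fold lower (3.25-fold to 4.48-fold), with log2 ratios of -1.79 as deposited, -0.90 relative to the shift and -0.85 adjusted. The last 2 values stay under the 2-fold limit, and 24.6% of the expressed genes had a lower log2 ratio. Acvr2b, a type II receptor, was at 9.25 TPM in T29I, from 240 reads (8.12 to 10.5 TPM), and at 14.5 TPM in wild-type, from 296 reads (12.9 to 16.3 TPM). Its log2 ratio of -0.60 as deposited became 0.30 relative to the shift and -0.17 adjusted. Within a library, Acvr1b was at 0.775 times the level of Acvr2b in T29I (0.640 to 0.936) and at 1.88 times in wild-type (1.63 to 2.17), so which receptor was the more abundant differed beyond counting error. The trend values also differ, at -0.94 for Acvr1b and -0.43 for Acvr2b.

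Smad2 and Smad3 carry the signal to the nucleus, and both were lower in T29I as deposited. Smad2 was at 7.81 TPM in T29I, from about 453 reads (counting interval 7.11 to 8.56 TPM), and at 47.5 TPM in wild-type, from about 2167 reads (45.6 to 49.6 TPM), which is 6.09-fold lower (5.50-fold to 6.75-fold). Its log2 ratio was -2.46 as deposited and -1.57 relative to the shift. Smad2 has the longest annotated transcript of the members, 8089 bases with a GC content of 44.9%, and the trend value at that length and GC content is -2.44, so its adjusted log2 ratio was -0.021. Smad3 was the member with the lowest level in wild-type, at 3.30 TPM in T29I, from 121 reads (2.74 to 3.95 TPM), and at 10.2 TPM in wild-type, from 294 reads (9.08 to 11.5 TPM). Its log2 ratios were -1.38 as deposited, -0.49 relative to the shift and -0.21 adjusted. Smad2 was at 2.36 times the level of Smad3 in T29I (1.93 to 2.91) and at 4.65 times in wild-type (4.12 to 5.27), so Smad2 was the more abundant in both. The trend value for Smad3 is -1.17, and the adjusted log2 ratio of Smad2 was not below that of Smad3.

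Of the intracellular inhibitors, as deposited, Smad7 was called lower and Skil was near the same level. Smad7 occupies the activated type I receptor and recruits ubiquitin ligases to it. It was at 17.3 TPM in T29I, from 517 reads (counting interval 15.9 to 18.9 TPM), and at 48.2 TPM in wild-type, from 1132 reads (45.5 to 51.1 TPM). This is 2.79-fold lower (2.51-fold to 3.10-fold), with log2 ratios of -1.43 as deposited, -0.53 relative to the shift and -0.90 adjusted. Skil encodes SnoN, a co-repressor that binds Smad complexes and is degraded when the pathway is active. It was at 20.9 TPM in T29I, from 1336 reads (19.8 to 22.0 TPM), and at 27.2 TPM in wild-type, from 1370 reads (25.8 to 28.7 TPM).

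The direction of Skil depended on the scale. Its log2 ratio was -0.37 as deposited, 0.53 relative to the shift and 1.96 adjusted, and 4.30% of the expressed genes had a higher adjusted value. The longest annotated Skil transcript has 6717 bases and a GC content of 41.0%, the lowest of the members, and the trend value there is -2.33. Which of its 6 annotated transcripts was expressed is not known from gene-level values, and the adjusted value rests on the longest of them. Skil was at 1.21 times the level of Smad7 in T29I (1.09 to 1.34) and at 0.564 times in wild-type (0.521 to 0.611).

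**Figure D2:**
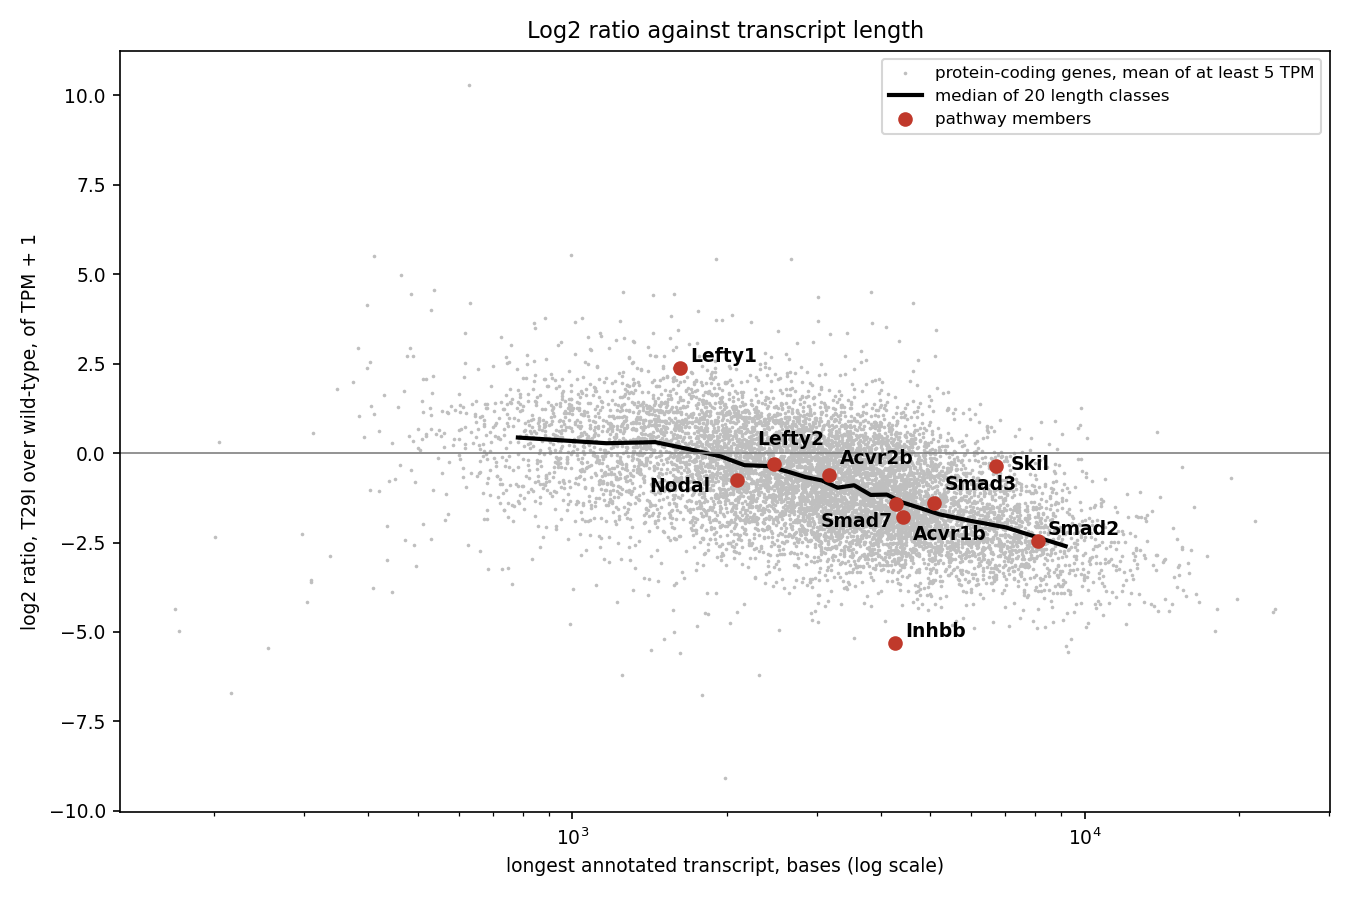
Log2 ratio, T29I over wild-type, of TPM + 1 (y axis) against the longest annotated transcript in bases (x axis, log scale) for protein-coding genes averaging 5 TPM or more (grey), with the median of 20 length classes (black line) and the 10 members (red). The line takes no account of GC content. Smad2, at 8089 bases, is at -2.46, and its trend value for length and GC content together is -2.44. Inhbb lies far below the line and Lefty1 and Skil above it.

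Counted over the list, 5 of the 10 members were called lower as deposited (Inhbb, Acvr1b, Smad2, Smad3 and Smad7) and 1 was called higher (Lefty1), beside 45.7% and 9.97% of the expressed genes. The median log2 ratio of the members was -1.06 and that of the expressed genes -0.84. Relative to the shift, 2 members (Inhbb and Smad2) were called lower and 1 (Lefty1) higher, beside 22.2% and 26% of the expressed genes, with medians of -0.17 and 0.055. After adjustment 1 member (Inhbb) was called lower and 2 (Lefty1 and Skil) higher, beside 15.5% and 17.6%, with medians of -0.19 and 0.040. With merged exon length in place of the longest transcript in that adjustment, 4 members were called lower (Inhbb at -5.63, Acvr1b at -1.20, Smad7 at -1.19 and Nodal at -1.04) and 2 higher (Lefty1 at 1.60 and Skil at 1.85), beside 16.6% and 18% of the expressed genes, and Smad2 was at -0.51. As deposited, the shares of the list were close to those of all expressed genes.

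**Figure D3:**
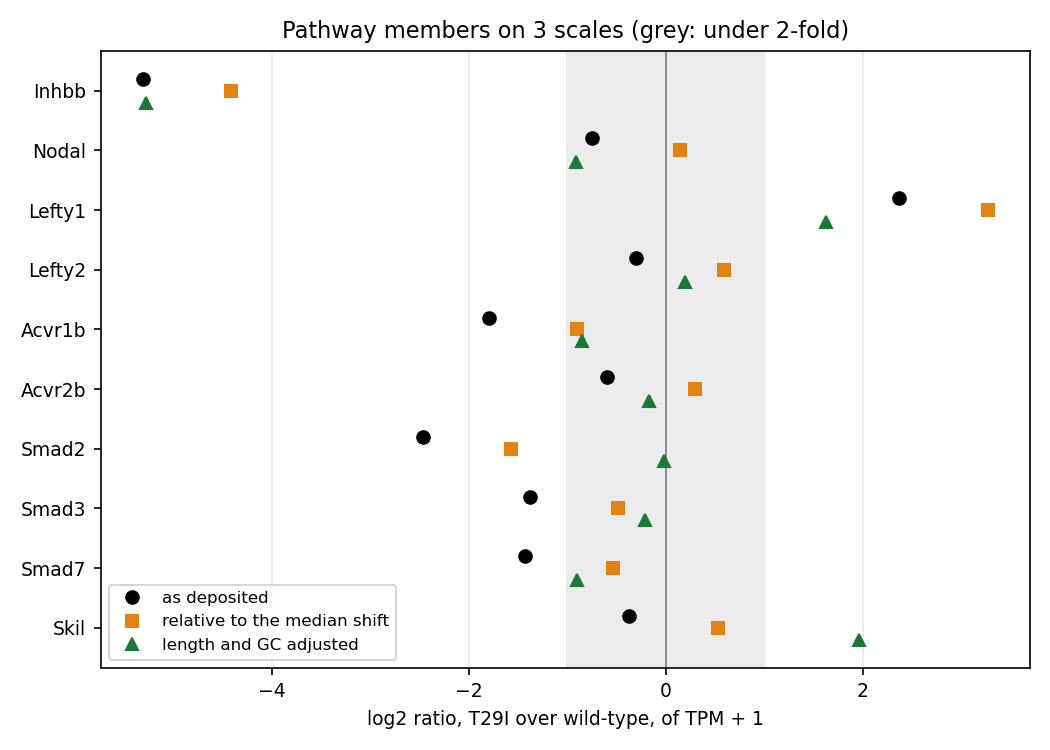
Log2 ratio, T29I over wild-type, of TPM + 1 for each member as deposited (circles), relative to the median shift of -0.90 (squares) and adjusted for length and GC content (triangles); the grey band holds ratios under 2-fold. Inhbb and Lefty1 lie outside the band on all 3 scales, Smad2 is at -2.46 as deposited and at -0.021 adjusted, and Skil at -0.37 as deposited and at 1.96 adjusted.

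The order of the levels also differed between the libraries. In T29I it ran Lefty1, Lefty2, Nodal, Skil, Smad7, Acvr2b, Smad2, Acvr1b, Smad3 and Inhbb, and the counting intervals of neighbours overlapped for Acvr2b with Smad2 and for Smad2 with Acvr1b. In wild-type it ran Lefty2, Nodal, Lefty1, Inhbb, Smad7, Smad2, Acvr1b, Skil, Acvr2b and Smad3, with overlaps for Lefty2 with Nodal, Smad7 with Smad2, and Acvr1b with Skil. The secreted proteins other than Inhbb were the 3 most abundant members in both, and Smad3 was among the last 2 in both.

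The other genes of the pathway came from a list of 44, of which 28 were expressed by the same rule. Of these, 12 were called lower and 4 higher as deposited, 3 lower and 7 higher relative to the shift, and 1 lower and 4 higher after adjustment. As deposited, the shares called lower and higher were 42.9% and 14.3%, beside 45.7% and 9.97% of all expressed genes. Relative to the shift they were 10.7% and 25%, beside 22.2% and 26%, and after adjustment 3.57% and 14.3%, beside 15.5% and 17.6%. Their median log2 ratio was -0.67 as deposited, 0.23 relative to the shift and 0.45 adjusted.

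Among the other ligands, the partners of Inhbb were barely detected. Inhba, the beta A subunit, had 2 reads in each library, and Inha, the inhibin alpha subunit, had 3 reads in T29I and 11 in wild-type. The beta subunit Inhbc had 19 reads (1.55 TPM) in T29I and 2 reads (0.207 TPM) in wild-type, which is 7.46-fold higher with a counting interval of 1.80-fold to 66.1-fold, at a mean under 1 TPM. Of the activin subunits listed, none thus exceeded 2 TPM in T29I, and only Inhbb did in wild-type. Gdf3, a ligand that acts through the same receptors, was at 99.9 TPM in T29I and 107.7 TPM in wild-type. Gdf1, a partner of Nodal, was at 43.3 TPM in T29I and 18.7 TPM in wild-type, with a log2 ratio of 1.17 as deposited but -0.73 adjusted.

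Nodal also needs a co-receptor and proprotein convertases that cut its precursor. The co-receptor gene Tdgf1, which encodes Cripto, was at 357 TPM in T29I and 899 TPM in wild-type, with log2 ratios of -1.33 as deposited and -0.40 adjusted. Cfc1, the related co-receptor Cryptic, was at 2.04 TPM in T29I and 3.15 TPM in wild-type. Pcsk6, which encodes the convertase PACE4, was at 7.61 TPM in T29I and 37.8 TPM in wild-type, and it was the gene of this list that was still called lower after adjustment (-2.17 as deposited, -1.49 adjusted). Furin, the other convertase, was at 4.45 TPM in T29I and 5.12 TPM in wild-type.

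Of the other receptors, the 2 that were expressed were called lower as deposited and lay within 2-fold of the trend. Tgfbr1, the type I receptor of TGF-beta, was at 2.57 TPM in T29I and 21.1 TPM in wild-type, with log2 ratios of -2.63 as deposited and -0.49 adjusted. Acvr2a, the other activin type II receptor, was at 1.86 TPM in T29I and 8.20 TPM in wild-type, with -1.68 and 0.48. Acvr1c was listed at 0 in both libraries, and Tgfbr2 and Tgfbr3 stayed below 1 TPM. Among secreted inhibitors, Dand5 was at 4.30 TPM in T29I, from 45 reads, and at 1.58 TPM in wild-type, from 13 reads. Follistatin (Fst), which binds activins, was at 2.33 TPM in T29I and 3.54 TPM in wild-type, and Cer1 had 1 read in T29I and was listed at 0 in wild-type.

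Smad partners differed in both directions. Foxh1, the DNA-binding partner of Smad2, was at 165 TPM in T29I and 63.7 TPM in wild-type, and Drap1, which binds Foxh1 and restrains it, was at 284 TPM in T29I and 99.1 TPM in wild-type. Their longest transcripts are short, at 1365 and 992 bases, and their log2 ratios of 1.36 and 1.51 as deposited were 0.42 and 0.15 adjusted. Smad4, the shared partner Smad, was at 18.9 TPM in T29I and 46.1 TPM in wild-type (-1.24 as deposited, -0.24 adjusted). Of the 10 intracellular inhibitors on this list, 5 were called lower as deposited and 0 higher, whereas after adjustment 0 were called lower and 4 higher, namely Tgif2, Nedd4l, Ppm1a and Bambi. The 50% called lower as deposited stands beside 45.7% of all expressed genes, and the 40% called higher after adjustment beside 17.6%. Of these 10 only Tgif2, a co-repressor, was above 0 on all 3 scales, at 79.4 TPM in T29I and 40.6 TPM in wild-type (0.95 as deposited, 1.22 adjusted). Ppm1a, a Smad phosphatase, was at 17.2 TPM in T29I and 33.4 TPM in wild-type.

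Other known targets of the pathway were mostly at low levels. Of 6 listed, 1 was expressed. This was Eomes, a mesendoderm and trophoblast factor, at 2.19 TPM in T29I and 6.21 TPM in wild-type. Mixl1, Gsc, Lhx1, Foxa2 and T had at most 14 reads in any library. Pmepa1, an inhibitor that is also a common target, was at 4.16 TPM in T29I and 11.6 TPM in wild-type, with log2 ratios of -1.28 as deposited and -0.41 adjusted.

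**Figure D4:**
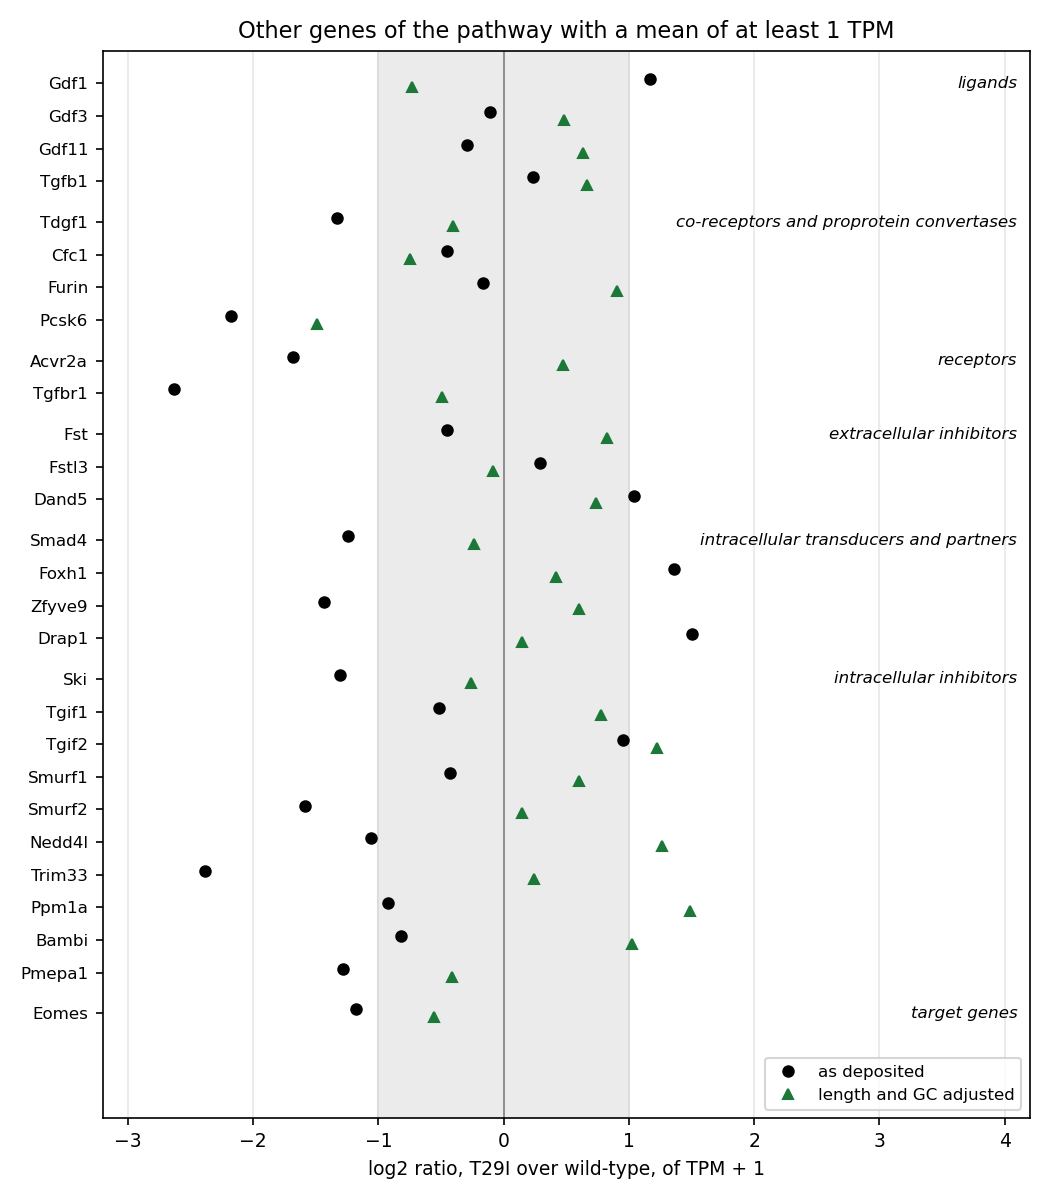
Log2 ratio, T29I over wild-type, of TPM + 1 for the 28 other expressed pathway genes, grouped by role, as deposited (circles) and adjusted for length and GC content (triangles); the grey band holds ratios under 2-fold. Of the 12 genes with a circle left of the band only Pcsk6, at -2.17 as deposited and -1.49 adjusted, also has its triangle there.

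The BMP branch of the same superfamily gives a comparison for the Smads and receptors. Of 7 genes 6 were expressed, and 4 of these were called lower and 0 higher as deposited, while 0 were called lower and 1 higher after adjustment. Over all expressed genes 45.7% were called lower and 9.97% higher as deposited, and 15.5% and 17.6% after adjustment. Smad5, a BMP-activated Smad, was at 2.69 TPM in T29I and 14.3 TPM in wild-type (-2.05 as deposited, 0.10 adjusted), much like Smad2. Smad6, the inhibitory Smad of the BMP branch, was at 10.8 TPM in T29I and 11.6 TPM in wild-type (-0.093 as deposited, -0.55 adjusted), beside -1.43 and -0.90 for Smad7. Whether the branches differ was not tested.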

How the data were processed

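The authors deposited 1 table of TPM values, with Ensembl identifiers and symbols, and each column summed to 1000000. Per the labels' protocols, Isogen was used for extraction and a stranded total RNA kit with ribosomal RNA removal for the libraries. Not given in the sources used here: aligner, counter, build and annotation. Columns were matched to samples through the sample descriptions, and groups came from the genotype labels.

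From the table, log2 ratios (T29I over wild-type) were computed with a pseudocount of 1, and genes averaging 1 TPM or more were counted past a 2-fold limit. The shift was the median over 9375 genes averaging 5 TPM or more. The adjustment subtracted a fitted surface, quadratic with a cross term, in log2 length and GC content of the longest transcript (GENCODE M21, GRCm38), which 51633 of 51826 identifiers matched. True differences that follow length or GC content are removed with it. TPM times merged exon length, divided by the commonest value, gave whole numbers within 0.05 for 79.9% of T29I and 81.0% of wild-type values above 0, and for 8 of the 10 members in both libraries. The reads of Acvr1b and Smad2 are rounded estimates. Intervals are 95% exact Poisson (levels) or exact binomial (ratios of reads). Of the members 2 overlap annotated genes, which were at 0 in both libraries. No count model was fitted, since the values are TPM and each group has 1 library. Python 3.11.15, numpy 2.4.6, pandas 2.3.3 and scipy 1.17.1 were used. The fit was tested on simulated data with a known trend in the same length and GC content. Such data cannot show whether the real trend has the fitted form. All members could be named, as could any gene of the wider list, except 1 gene that is not reported here and was left out of its counts. Members and lists were chosen with earlier results of these data known.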

Additional observations from a re-analysis of the deposited data

How the results depend on the processing

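No paired analysis was possible because each group has 1 library, and for the same reason no library could be left out. Across the 7 other settings Inhbb stayed at least 2-fold lower (log2 ratio -6.12 to -3.83) and Lefty1 at least 2-fold higher (1.60 to 3.27). Nodal, Lefty2, Acvr2b and Skil changed sign with the scaling or the adjustment, and Acvr1b, Smad2, Smad3 and Smad7 stayed below 0 but under 2-fold in at least 2 settings each. Scaling of estimated reads by library totals and an adjustment on merged exon length were added after the data were seen. Scaling by library totals moves all log2 ratios up by 0.49 and leaves out the pseudocount.

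Members called lower numbered 5 as deposited, 2 relative to the shift, 1 adjusted and 4 adjusted on merged exon length, and members called higher numbered 1 as deposited and 2 under either adjustment. The median of the members was -0.17 relative to the shift and -0.19 adjusted. Over all expressed genes, those called lower numbered 5909 as deposited, 2867 relative to the shift, 2003 adjusted and 2143 adjusted on merged exon length. Those called higher numbered 1290, 3371, 2268 and 2329 in the same order, 749 with a pseudocount of 5 and 2380 with scaling by library totals. The 12 lower genes of the wider list became 7 with a pseudocount of 5 and with scaling by library totals, 3 relative to the shift and 1 under either adjustment. The 4 higher became 7 relative to the shift. The median of the wider list was 0.23 relative to the shift, 0.45 adjusted and 0.23 adjusted on merged exon length, but -1.15 over genes averaging 5 TPM or more and -0.44 with no filter on low values. These alternatives shift or bend the scale by construction, and the cause of the length and GC trend was not tested. Depth limits Inhbb in T29I, at 30 reads, and the genes with under 20 reads.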
